A study of Mus musculus with 4 samples.

Results

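Metabotropic glutamate receptors and the GABA-B receptor were examined in RNA bound to tagged ribosomes of midbrain dopamine neurons (TRAP) and in RNA of the whole midbrain (input). The genes were Grm2, Grm3, Grm4, Grm5, Grm7, Grm8, Gabbr1 and Gabbr2, and every probe set annotated to 1 of these symbols alone was taken. This gave 13 probe sets for 7 of the 8 genes, out of 18193 genes with such a probe set on the array. Gabbr2 had no probe set of this kind, so no value is given for it here, and 1 further probe set annotated to Grm2 together with another symbol was left out.

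Both fractions came from midbrains of adult mice of both sexes, 6 to 12 weeks old, of the Slc6a3 JD1640 TRAP line, in which a bacterial artificial chromosome carrying Slc6a3, the dopamine transporter gene, drives a fusion of eGFP and the ribosomal protein RPL10A. The line was made on FVB and then bred to C57BL6/j, and the mice that gave the input carried the same transgene. There were 2 TRAP arrays (replicates 2 and 4) and 2 input arrays (replicates 1 and 2), each from a pool of 5 mice, so an array stands for a pool and not for an animal. The paper's methods describe an input fraction taken alongside each TRAP replicate, so TRAP replicate 2 and input replicate 2 may share a pool, which the fit treated as independent. The labels call the second fraction unbound RNA, and the name input follows the paper.

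Metabotropic glutamate receptors are class C G protein-coupled receptors that work as dimers and fall into groups by sequence and coupling. Group I, to which Grm5 belongs, activates Gq/11 and phospholipase C and sits mostly on the postsynaptic membrane. Group II (Grm2 and Grm3) and group III (Grm4, Grm7 and Grm8) couple to Gi/o, lower cyclic AMP and often restrain transmitter release from axon terminals, and Grm3 and Grm5 are also known from astrocytes. The GABA-B receptor is a heterodimer in which the Gabbr1 product binds GABA and the Gabbr2 product engages Gi/o. On midbrain dopamine neurons it is known for slow inhibition through GIRK potassium channels.

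The deposited GCRMA values are log2 values, and a level in the text is 2 raised to such a value, in arbitrary expression units. A level belongs to its probe set, and levels of different probe sets are not compared. Sums over lists of markers are given further on and serve only to set arrays side by side. A probe set was taken as above background when either fraction had 50 units or more on both of its arrays, which held for 17073 of 45037 probe sets tested and for 9 of the 13 receptor probe sets, covering 6 genes. The median log2 fold change of the 17073 was 0.44 rather than 0, which bears on every fold change given here. All 8 dopamine neuron markers (Th, Slc6a3, Slc18a2, Ddc, Nr4a2, Pitx3, En1 and Foxa2) rose in TRAP with limma. Pitx3, En1 and Foxa2 were below background on both input arrays, and with values under 50 units raised to 50 the median log2 fold change of the 8 was 3.71.

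Gabbr1 was higher in TRAP on each of its 3 probe sets above background, whereas Grm2, Grm3, Grm4 and Grm7 were lower on both TRAP arrays than on both input arrays, and the 2 probe sets of Grm5 differed in sign. With limma, 2 probe sets rose, both of Gabbr1, and 1 fell, that of Grm4, which has no spread within either fraction. Of the 2 that rose, 1422051_a_at was below background in input and was not called with values under 50 units raised to 50. Among all probe sets above background 18.8% rose and 9.13% fell. The arrays of the fractions did not overlap in 3 receptor probe sets that were higher in TRAP, against 51.5% of probe sets above background, and in 5 that were lower, against 24.9%. At an unadjusted p under 0.05 from limma, 2 receptor probe sets were higher (28.0% of all above background) and 2 lower (13.0%), the second being Grm7. Negative log2 fold changes were found in 5 of the 9 receptor probe sets, against 35.1% of all above background, and 6 lay below the median of all probe sets above background, and their own median log2 fold change was -0.47. For any single probe set an exact permutation test over 2 against 2 arrays cannot give a two-sided p below 0.333.

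**Figure D1:**
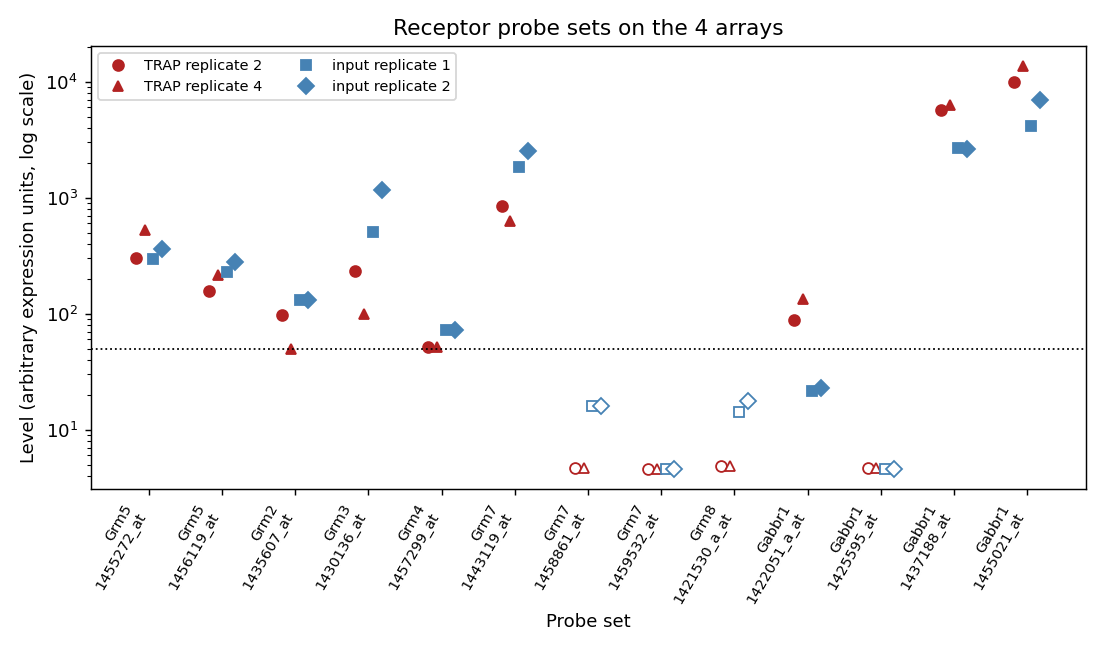
Level in arbitrary expression units (log scale) of the 13 receptor probe sets on the 2 TRAP arrays (red) and the 2 input arrays (blue), with the dotted line at 50 units and open symbols for probe sets below background. The TRAP arrays lie above both input arrays for the 3 filled Gabbr1 probe sets, and below them for Grm3 and Grm7. Levels compare arrays within a probe set only.

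Gabbr1 carries the GABA-binding subunit without which no functional GABA-B receptor forms. Its probe set 1437188_at was at 5681 and 6265 units on TRAP replicates 2 and 4, and at 2688 and 2650 units on input replicates 1 and 2. The TRAP arrays lay close together and clear of both input arrays. SE denotes limma's standard error of a log2 fold change. The mean was 5973 ± 413 units in TRAP and 2669 ± 27.0 in input (SD, n = 2 each), a 2.24-fold rise (log2 fold change 1.16, SE 0.066, limma adjusted p = 0.00603). Of all probe sets above background, 74.7% had a lower log2 fold change.

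A second Gabbr1 probe set, 1422051_a_at, was at 87.4 and 135 units on TRAP replicates 2 and 4. On the input arrays it read 21.7 and 22.9 units, below background. Against the background of 50 units the rise was at least 2.17-fold (limma adjusted p = 0.0270 on the deposited values). With values under 50 units raised to 50 the call was lost, at a log2 fold change of 1.12 (limma adjusted p = 0.267). This probe set was dim in TRAP as well, with replicate 2 under 100 units.

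The remaining Gabbr1 probe set above background, 1455021_at, was at 9859 and 13620 units on TRAP replicates 2 and 4 and at 4157 and 6977 on input replicates 1 and 2. Here too both TRAP arrays were above both input arrays, yet the input arrays themselves stood apart. Its log2 fold change of 1.11 (SE 0.41) did not pass (limma adjusted p = 0.137), although its size was like the 1.16 of 1437188_at. Within an array, 1437188_at minus 1455021_at was -0.80 and -1.12 log2 units in TRAP and -0.63 and -1.40 in input, so these 2 probe sets showed no separate change. The difference between 1422051_a_at and 1437188_at was -6.02 and -5.54 in TRAP and -6.95 and -6.85 in input, with the input reading of the first below background. The fourth probe set, 1425595_at, stayed at 4.69 units on both TRAP arrays and 4.59 on both input arrays.

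Without either input array no Gabbr1 probe set passed. For 1437188_at the adjusted p from limma was then 0.0627 without input replicate 1 and 0.0648 without input replicate 2, and for 1422051_a_at it was 0.145 and 0.143. With either TRAP array left out, the spread within fractions came from the 2 input arrays alone, which lay close together for both probe sets. Such fits cannot show whether the calls hold. The log2 fold change was 1.23 and 1.09 for 1437188_at without TRAP replicates 2 and 4, and 2.59 and 1.97 for 1422051_a_at. Scaling changed the size more than the direction, and 1437188_at went from 1.16 to 0.62 after quantile normalization of the 4 arrays and to 0.75 after centring on bright probe sets.

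Grm5 encodes the group I receptor that raises intracellular calcium through phospholipase C. Probe set 1455272_at was at 299 and 523 units on TRAP replicates 2 and 4 and at 294 and 358 on input replicates 1 and 2. The fractions overlapped, with TRAP replicate 4 alone standing high. Its log2 fold change was 0.29 (SE 0.40, limma adjusted p = 0.582), and it turned negative under both alternative scalings, to -0.095 after quantile normalization and -0.12 after centring, and to -0.12 without TRAP replicate 4.

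The other Grm5 probe set, 1456119_at, was at 157 and 214 units on TRAP replicates 2 and 4 and at 228 and 282 on input replicates 1 and 2. Both TRAP arrays lay below both input arrays, by a log2 fold change of -0.47 (SE 0.25, limma adjusted p = 0.235). After centring it passed, at -0.87 (limma adjusted p = 0.0331). The difference between the 2 Grm5 probe sets within an array, which no scaling between arrays by a constant can move, was 0.93 and 1.29 log2 units in TRAP and 0.37 and 0.35 in input. The TRAP values of this difference lay above the input values by 0.75 on average. On these 4 arrays the 2 probe sets gave different ratios of TRAP to input for the same gene symbol. No test was made of this difference, and where in the transcripts the probe sets lie was not examined.

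Grm3, a group II receptor, had the lowest log2 fold change of the 9. It was at 231 and 98.7 units on TRAP replicates 2 and 4 and at 509 and 1175 on input replicates 1 and 2. Every TRAP array was below every input array, but the arrays of each fraction differed by more than 2-fold. The mean was 165 ± 93.7 units in TRAP and 842 ± 471 in input (SD, n = 2 each). The log2 fold change of -2.36, or 5.12-fold lower, had a SE of 0.80 and did not pass (limma adjusted p = 0.120). It passed after centring (-2.77, limma adjusted p = 0.0339), and it ranged from -2.97 to -1.74 with 1 array left out.

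Grm2, the other group II receptor, was at 97.3 and 49.5 units on TRAP replicates 2 and 4 and at 133 on both input arrays, where the deposited values are identical. TRAP replicate 4 lay just under background. The log2 fold change was -0.93 (SE 0.45, limma adjusted p = 0.205).

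Grm7, a group III receptor known from the release sites of many axon terminals, was at 843 and 629 units on TRAP replicates 2 and 4 and at 1825 and 2504 on input replicates 1 and 2 (probe set 1443119_at). The fractions were well apart, with means of 736 ± 151 and 2164 ± 480 units (SD, n = 2 each). From the means of log2 values TRAP was 2.93-fold lower (log2 fold change -1.55, SE 0.29), which just missed the threshold (limma adjusted p = 0.0519). It passed with quantile normalization (-2.02, limma adjusted p = 0.0412) and after centring (-1.96, limma adjusted p = 0.0167). It also passed with limma-trend (adjusted p = 0.0268) and in a limma fit restricted to probe sets above background (adjusted p = 0.0275). It did not pass with values under 50 units raised to 50 (limma adjusted p = 0.176), although none of its own values lay under 50. The floor was set on all probe sets before the fit, which takes its variance prior and adjustment from all of them. The log2 fold change of Grm7 stayed at -1.55. With control probe sets kept Grm7 did not pass either (limma adjusted p = 0.0519). It missed the threshold without any 1 of the 4 arrays, at adjusted p from 0.124 to 0.186 from limma. The other Grm7 probe sets were below background, at 4.67 units in TRAP and 15.9 in input for 1458861_at and at 4.62 and 4.59 units for 1459532_at.

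Grm4, also of group III, was at 51.4 units on both TRAP arrays and 72.1 on both input arrays. It was only just above background in TRAP, and its 2 arrays of a fraction carry the same value to the last digit deposited. The log2 fold change of -0.49 received an adjusted p of 1.1e-05 from limma, which rests on a spread of 0 within the fractions and is not informative. In the fit restricted to probe sets above background it did not pass (limma adjusted p = 0.121). Identical values within both fractions were found on 15551 probe sets. Of these, 9920 had a limma adjusted p under 0.05, counted with no background filter, and only 85 of the 15551 were above background. Grm8 was below background on all arrays, at 4.88 units on both TRAP arrays and at 14.2 and 17.5 units on input replicates 1 and 2, and no fold is given for it.

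**Figure D2:**
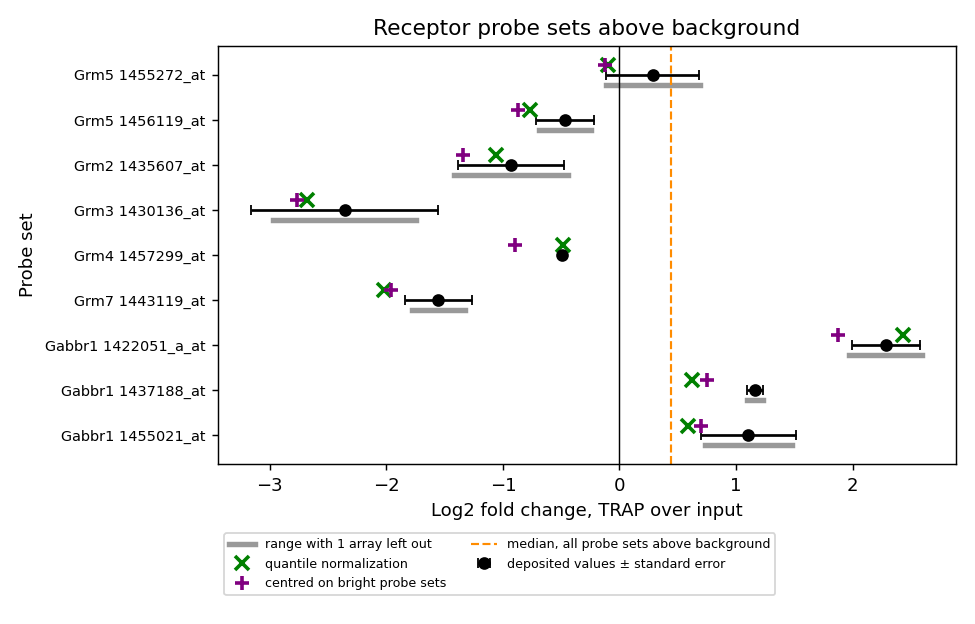
Log2 fold changes (TRAP over input, x axis) of the 9 receptor probe sets above background. Points with bars are the deposited values with limma's standard error, grey bars the range with 1 array left out, crosses quantile normalization, plus signs centring, and the dashed line the median of all probe sets above background (0.44). The 3 Gabbr1 probe sets stay positive in every setting drawn, Grm2, Grm3, Grm4 and Grm7 stay negative, and Grm5 1455272_at crosses 0.

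The 2 TRAP arrays differed from each other. Grm3, Grm2 and Grm7 were higher on TRAP replicate 2 than on replicate 4, by 1.23, 0.98 and 0.42 log2 units, while the Gabbr1 probe sets (-0.62, -0.14 and -0.47) and the Grm5 probe sets (-0.81 and -0.44) were lower on replicate 2, and Grm4 was the same on both. Of markers of other cells, 8 of 8 for GABAergic neurons were higher on replicate 2 (median difference 1.46). So were 9 of 10 for astrocytes (0.84) and 7 of 7 for oligodendrocytes (1.46). The same held for 2 of 2 markers of glutamatergic neurons, 2 of 2 of oligodendrocyte precursors, 3 of 3 of microglia and 4 of 4 of endothelial and mural cells above background. Of the 8 dopamine neuron markers 1 was higher on replicate 2 (median -0.30). Tph2, the serotonin synthesis enzyme and the only serotonergic marker above background, was at 294 units on both TRAP arrays and at 604 and 69.3 units on input replicates 1 and 2. No test was made of these differences between 2 single arrays. The share of all genes above background that was higher on replicate 2 was not computed, so these counts have no baseline. Of the 44 partner and effector genes above background treated below, 16 were higher on replicate 2 (median -0.19).

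Summed over the list, GABAergic neuron markers reached 3789 to 9283 units in TRAP and 9762 to 16730 in input, astrocyte markers 7747 to 13584 and 29931 to 36151, and oligodendrocyte markers 32012 to 69865 and 74706 to 88674. All 8, all 10 and all 7 had negative log2 fold changes, with medians of -1.21, -1.74 and -1.30, and none was below background on all 4 arrays. Such sums mostly follow the brightest probe sets, and Mbp alone gave 41048 of the 69865 oligodendrocyte units on TRAP replicate 2. Microglia markers summed to 456 to 988 units in TRAP and 1523 to 3161 in input, with Aif1, Itgam, P2ry12 and C1qa below background. The part of these cells in the levels of Grm2, Grm3 and Grm7 was not tested. In tissue of mixed cells, fewer cells of a type and less RNA per cell cannot be told apart. The control probe sets of Gapdh were brighter at the 3′ than at the 5′ end by 4.96 and 3.52 log2 units on TRAP replicates 2 and 4 and by 6.81 and 6.39 on input replicates 1 and 2, and the part of RNA quality was not tested either.

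**Figure D3:**
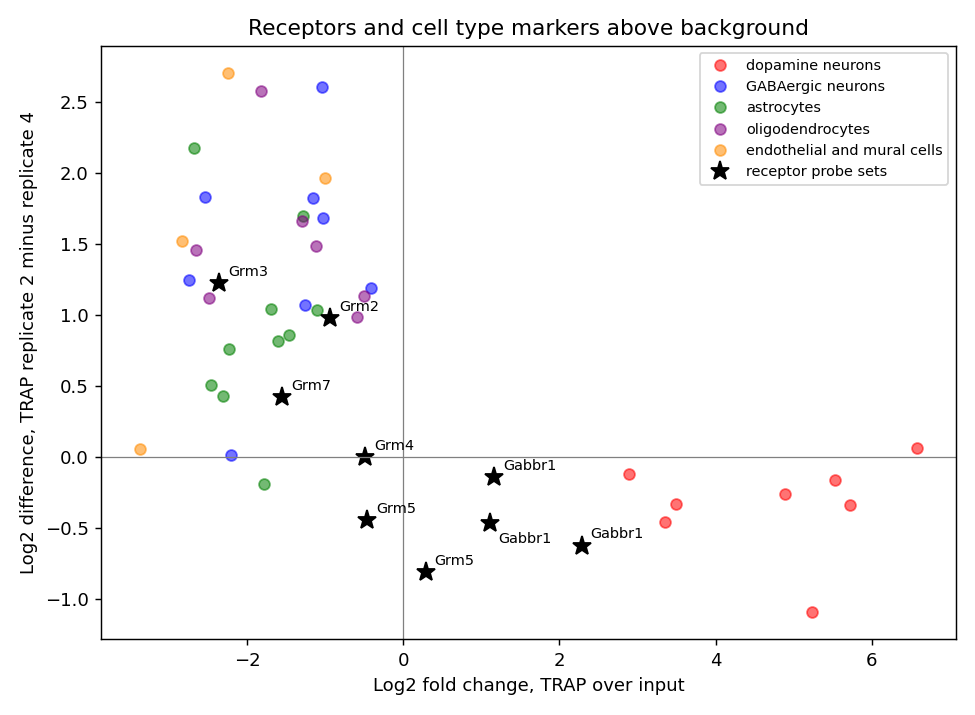
Log2 fold change of TRAP over input (x) against the log2 difference between TRAP replicates 2 and 4 (y) for the 9 receptor probe sets (stars) and for markers above background of 5 cell types (circles). Grm2, Grm3 and Grm7 lie in the upper left with markers of GABAergic neurons and glia, and the Gabbr1 probe sets lie at lower right, short of the dopamine neuron markers. Points share the TRAP arrays on both axes.

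Genes whose 4 values followed the receptors most closely were sought among 10013 other genes above background, by the root mean square difference of log2 values after each probe set's own mean was removed. For Gabbr1 1422051_a_at, which had the highest log2 fold change of the receptors on the deposited values, these were Echs1 (0.015 log2 units), Lhfpl5 (0.028) and Nr2c2ap (0.048). The input values of 1422051_a_at and of Nr2c2ap were below background, so this order rests partly on values under 50 units. For Grm3 they were Rasgrp1, Laptm5 and Hrh1 (0.095, 0.100 and 0.100), with log2 fold changes of -2.36, -2.48 and -2.16. Likeness over 4 arrays in 2 groups reflects little beyond the fold change and the spread within fractions.

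The partners and effectors of these receptors were taken as lists by role, with 1 probe set per gene, the brightest. Of 66 genes listed, 57 were measured and 44 were above background, of which 6 rose and 2 fell with limma. Among all 10014 genes above background 18.7% rose and 6.87% fell. At an unadjusted p under 0.05, 9 were higher and 2 lower, against 27.8% and 10.8% of all. Both TRAP arrays were above both input arrays in 20 (52.3% of all genes above background) and below them in 4 (23.6%). Log2 fold changes were negative in 10 (34.2% of all), and the median was 0.41, beside 0.44 for all these genes.

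Of 7 GABA-B receptor partners above background, 2 rose and 0 fell (at an unadjusted p under 0.05 also 0), with a median of 0.50. Both encode membrane proteins that bind the Gabbr1 product's extracellular part. Ajap1 was at 2793 and 3658 units on TRAP replicates 2 and 4 and at 650 and 913 on input replicates 1 and 2, a 4.15-fold rise (log2 fold change 2.05, SE 0.29, limma adjusted p = 0.0324). Pianp was at 218 and 261 units in TRAP and 72.4 and 96.1 in input, a 2.86-fold rise (log2 fold change 1.52, SE 0.23, limma adjusted p = 0.0356). The fractions did not overlap for either gene. The auxiliary subunits Kctd8 and Kctd12b, which shape the kinetics of the receptor's response, were above background with log2 fold changes of 0.0024 and 0.24. Neither passed, and Kctd16 was below background. Kctd12, also on the list, was not among the genes measured.

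Of 10 scaffolds and partners of metabotropic glutamate receptors above background, 1 rose and 0 fell, with a median of 0.066. Elfn1, a synaptic adhesion protein that binds group III receptors across the cleft, was at 683 and 953 units on TRAP replicates 2 and 4 and at 162 and 175 on input replicates 1 and 2. This was a 4.79-fold rise (log2 fold change 2.26, SE 0.23, limma adjusted p = 0.0176). Homer2, of the family of scaffolds that bind group I receptors, had a log2 fold change of 1.19 and did not pass (limma adjusted p = 0.0586), and Homer1 was at 0.16. Nherf1, a PDZ scaffold, was at 592 and 117 units on TRAP replicates 2 and 4 and at 1037 and 1570 on input replicates 1 and 2, with a log2 fold change of -2.28 that did not pass (limma adjusted p = 0.209). Shank3, a postsynaptic scaffold that binds Homer proteins, had a log2 fold change of -0.93 (limma adjusted p = 0.171). In both the TRAP arrays lay below both input arrays. At an unadjusted p under 0.05 from limma, 3 genes of this list were higher, Elfn1, Homer2 and Pick1, and 0 were lower. Pick1 had a log2 fold change of 0.60 (limma adjusted p = 0.0785), with both TRAP arrays above both input arrays.

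Of 12 Gi/o proteins and effector channels above background, 1 rose and 1 fell, with a median of 0.58. Cacna1a, the pore subunit of P/Q-type calcium channels at terminals, was at 222 and 256 units on TRAP replicates 2 and 4 and at 117 and 124 on input replicates 1 and 2 (log2 fold change 0.98, SE 0.10, limma adjusted p = 0.0186). With the mean of all its probe sets its log2 fold change was 0.092. Kcnj3, the GIRK1 subunit, was at 235 and 172 units in TRAP and 762 and 1041 in input, 4.44-fold lower (log2 fold change -2.15, SE 0.30, limma adjusted p = 0.0306). The mean of all its probe sets gave -0.75 and lay below background. Of the other GIRK subunits, Kcnj9 was above background, with a log2 fold change of 0.048 that did not pass (limma adjusted p = 0.944). Kcnj5 and Kcnj6 were below background on the probe sets taken, so no fold is given for them. Gnao1, the G protein alpha subunit most abundant in brain, had a log2 fold change of 0.57 (limma adjusted p = 0.0538).

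Of 9 Gq/11 proteins and effectors above background, 0 rose and 1 fell, with a median of 0.37, and 0 were higher at an unadjusted p under 0.05 from limma. Itpr2, an inositol trisphosphate receptor prominent in astrocytes, was at 40.0 and 34.8 units on TRAP replicates 2 and 4, below background, and at 173 and 205 on input replicates 1 and 2. The fall was by at least 3.77-fold (limma adjusted p = 0.00719), and the mean of all its probe sets, itself below background, gave a log2 fold change of -0.91. Of 5 receptor kinases and arrestins, 2 rose and 0 fell (0 at an unadjusted p under 0.05 from limma), with a median of 0.59. Grk6, a kinase that marks active receptors for arrestin binding, rose 2.58-fold from 3024 ± 409 to 7771 ± 391 units (SD, n = 2 each, limma adjusted p = 0.0173), and Arrb1 rose 2.01-fold from 586 ± 90.3 to 1173 ± 102 units (SD, n = 2 each, limma adjusted p = 0.0432). The only class C receptor of the remaining family above background, Gprc5b, had a log2 fold change of -0.68 and did not pass (limma adjusted p = 0.373).

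After quantile normalization 2 of these genes rose, Elfn1 and Cacna1a. Limma's adjusted p was then 0.0548 for Ajap1, 0.0569 for Pianp, 0.0563 for Grk6 (log2 fold change 0.82) and 0.138 for Arrb1 (0.56). Without TRAP replicate 2 or TRAP replicate 4, 1 of these genes rose, Elfn1, and 0 fell with limma. At an unadjusted p under 0.05, 2 and 1 fell, respectively. Without input replicate 1 or input replicate 2, 6 and 7 rose and 2 and 1 fell, but each of the genes named above as passing, except Grk6 and Itpr2, missed the threshold in both cases. With values under 50 units raised to 50, 0 rose (12 at an unadjusted p under 0.05), although of the genes that passed only Itpr2 has a value under 50 units. As for Grm7, the floor was set on all probe sets before the fit, not on these genes alone.

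**Figure D4:**
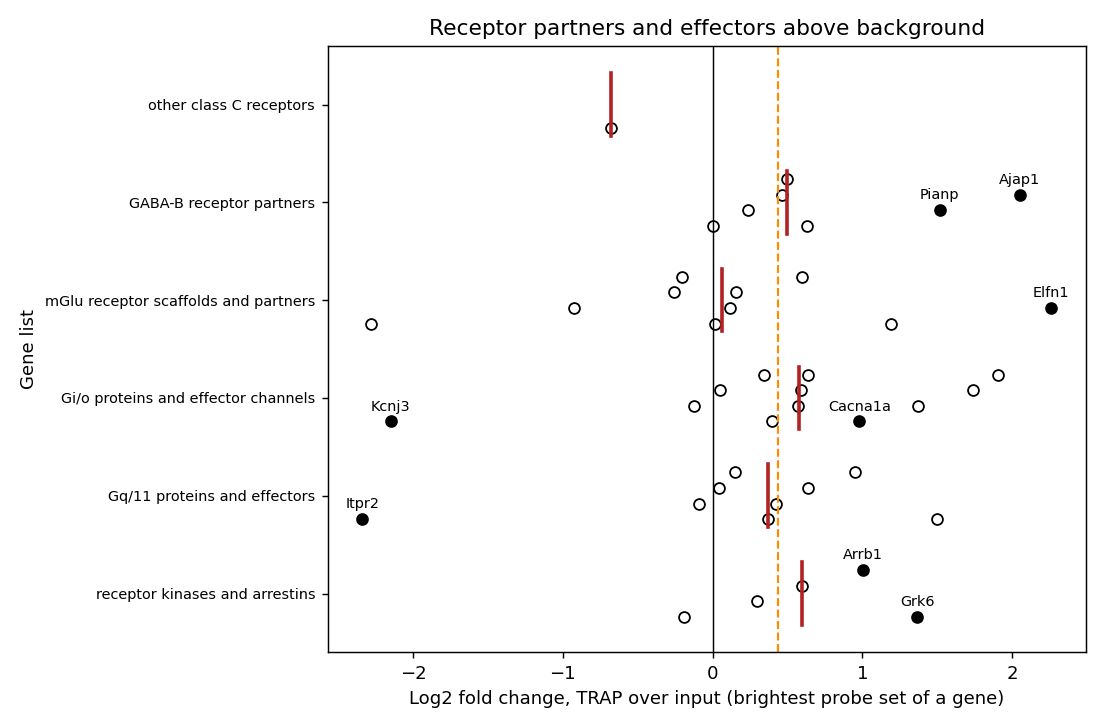
Log2 fold changes (TRAP over input, x axis) of the 44 partner and effector genes above background, by list. Filled circles passed an adjusted p of 0.05 with limma and are named, open circles did not, red bars are list medians, and the dashed line is the median of all genes above background (0.44). The list medians lie between -0.68 for the 1 other class C receptor and 0.59 for receptor kinases and arrestins.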

How the data were processed

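RNA from TRAP and input was measured on Affymetrix mouse expression arrays after 2-cycle amplification. The authors normalized the arrays with GCRMA (version not given in the sources used here), and the deposited values are log2 values, 1 per probe set and array. Of 45101 probe sets, 64 controls were left out. GEO's platform annotation gives 34945 probe sets 1 symbol, 932 several and 9160 none. The sorted values of the fractions differ (median 7.13 to 7.28 units in TRAP, 10.1 to 10.2 in input), and no further normalization was applied. The contrast of TRAP minus input was fitted with limma 3.58.1 under R 4.3.3 (empirical Bayes, two-sided, prior 0.317 and residual 2 degrees of freedom), with Benjamini-Hochberg adjustment over 45037 probe sets and a threshold of 0.05. The script was tested on simulated data. The receptors and lists were chosen with earlier results of these data known. Named are all receptor probe sets above background and, per list, up to 4 genes that passed or the brightest. Others named with values (Kctd8, Kctd12b, Homer1, Homer2, Pick1, Nherf1, Shank3, Kcnj9 and Gnao1) were chosen after their values were seen. Alternatives were the scaling, filter, floor, variance prior, control probe sets, background level, each array left out, and the mean of a gene's probe sets. The number of arrays limits precision, and p-values measure the spread between 2 pools.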

Additional observations from a re-analysis of the deposited data

How the results depend on the processing

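The counts of receptor probe sets depended on the setting. Those that rose numbered 2 with limma on the deposited values, 1 with values under 50 units raised to 50, 1 with a background of 100 units, and 0 to 2 with 1 array left out (1 at an unadjusted p under 0.05 without either input array). Those that fell numbered 1, Grm4, and 2 after quantile normalization or with limma-trend (Grm4 and Grm7), 4 after centring on bright probe sets (Grm3, Grm4, Grm7 and Grm5 1456119_at), 0 with a background of 100 units (1 at an unadjusted p under 0.05), and 1 to 2 with 1 array left out. With only probe sets above background fitted it was again 1, but Grm7 in place of Grm4. Without either TRAP array Grm2 was called beside Grm4, since its input values are identical and a single TRAP array leaves no spread. Grm5 1455272_at reversed to -0.095 after quantile normalization, -0.12 after centring and -0.12 without TRAP replicate 4 (-0.12 to 0.69 with 1 array left out), and no other receptor probe set changed direction.

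Of the pathway genes, 6 rose and 2 fell. After quantile normalization 2 rose, with values under 50 units raised to 50 0 rose and 1 fell, with a gene's probe sets averaged 0 fell (1 at an unadjusted p under 0.05), since the averages of Kcnj3 and Itpr2 were below background, and with 1 array left out 1 to 7 rose and 0 to 2 fell. With 1 array left out, the lone array of a fraction was assumed to vary like the other fraction, and counts were made over the same probe sets. Apart from the constructions named here, the cause was not tested. Centring moved the median of all probe sets by -0.41 log2 units. No paired analysis was possible because the fractions share only replicate number 2.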
